A study of Mus musculus with 6 samples.

Results

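The genes described are 31 genes of the red blood cell lineage: the transcription factors that direct it, the erythropoietin receptor, iron import and heme synthesis genes, and genes for the red cell membrane and its surface proteins. They were chosen by name, and 30 of the 31 matched a row of the deposited table of 56359 rows; the globin chaperone gene Ahsp was not analysed here. RNA sequencing had been run on embryos of strain C57BL/6 at embryonic day 12, 3 samples with both Tmem216 copies intact (wild type) and 3 of genotype Tmem216-/-. No other allele or treatment is given for either genotype. The labels name the source only as embryo, without saying which parts were taken, how the allele was made, or whether a sample is 1 embryo or a pool, and the p values therefore rest on sample-to-sample spread alone, some of which may be technical. Values are in TPM, a unit of transcript abundance scaled for transcript length and library total, so levels of different genes can be set side by side; read depth cannot be read from them. Below, the values of each genotype are always listed for replicates 1, 2 and 3 in that order.

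Red cells arise in waves. Primitive erythroblasts form in the yolk sac, enter the circulation and carry embryonic globins, while definitive erythroblasts mature in the fetal liver and carry adult-type globins. GATA1, TAL1 and KLF1 switch on the genes of heme synthesis and of the membrane skeleton, erythropoietin keeps the progenitors alive, and transferrin receptors bring in iron for heme. Early erythroblasts depend most on these regulators and receptors, and late ones hold much globin, band 3 and heme synthesis RNA.

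No erythroid gene was called as differing between the genotypes, which at 3 against 3 samples does not show that levels were equal. Of the 30 genes, 0 passed an adjusted p of 0.05 in limma over all 16411 tested genes, where 0.104% of genes passed (0.00609% lower and 0.0975% higher in Tmem216-/-). The smallest adjusted p among them was 0.983. At an unadjusted p under 0.05 there were 2 of 30, both heme enzymes and both lower, against 4.46% of all tested genes (2.22% lower). In 0 of 30 were the genotypes without overlap, against 9.57% of all tested genes (4.83% lower and 4.75% higher), and the smallest exact permutation p that 3 against 3 samples allow, 0.1, was reached by 0 of 30. The fold changes lay mostly on the low side: 27 of 30 were below 0, against 51.7% of all tested genes. Their median log2 fold change (Tmem216-/- minus wild type, on log2(TPM + 1)) was -0.25, against -0.01 over all tested genes. That median moved with single samples, to -0.02 without wild type replicate 2, -0.12 without Tmem216-/- replicate 2 and -0.53 without wild type replicate 3. The count below 0 was 17 without wild type replicate 2 and 19 without Tmem216-/- replicate 2. The count at an unadjusted p under 0.05 in limma was 14 without wild type replicate 3, with 0 of 30 passing each time. With all 6 samples, the 95% intervals of the log2 fold changes held -1 in 14 of 30 genes and 1 in 4 of 30.

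The larger pattern ran across the samples within each genotype. The 3 highest values belonged to wild type replicates 1 and 2 and Tmem216-/- replicate 1 in 21 of 30 genes, and in 6.98% of all tested genes; this set of samples was noticed after the values were seen. Wild type replicate 2 held the highest value of 23 of the 30 genes, and of 22.8% of all tested genes. Tmem216-/- replicate 2 held the lowest value of 16, against 14.9% of all tested genes. Wild type replicate 3 held the lowest of 10, near its share of 27.0% of all tested genes. The wild type samples alone spanned a wider log2 range than the difference between genotypes in 28 of 30 genes, which was also so for 89.6% of all tested genes. For the Tmem216-/- samples the same held in 29 of 30 genes and 74.5% of all tested genes. The median SD within a genotype was 0.44 on the log2 scale for the erythroid genes and 0.21 over all tested genes. The highest sample was at least 3 times the lowest in 14 of the 30 genes and in 14.5% of all tested genes.

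**Figure D1:**
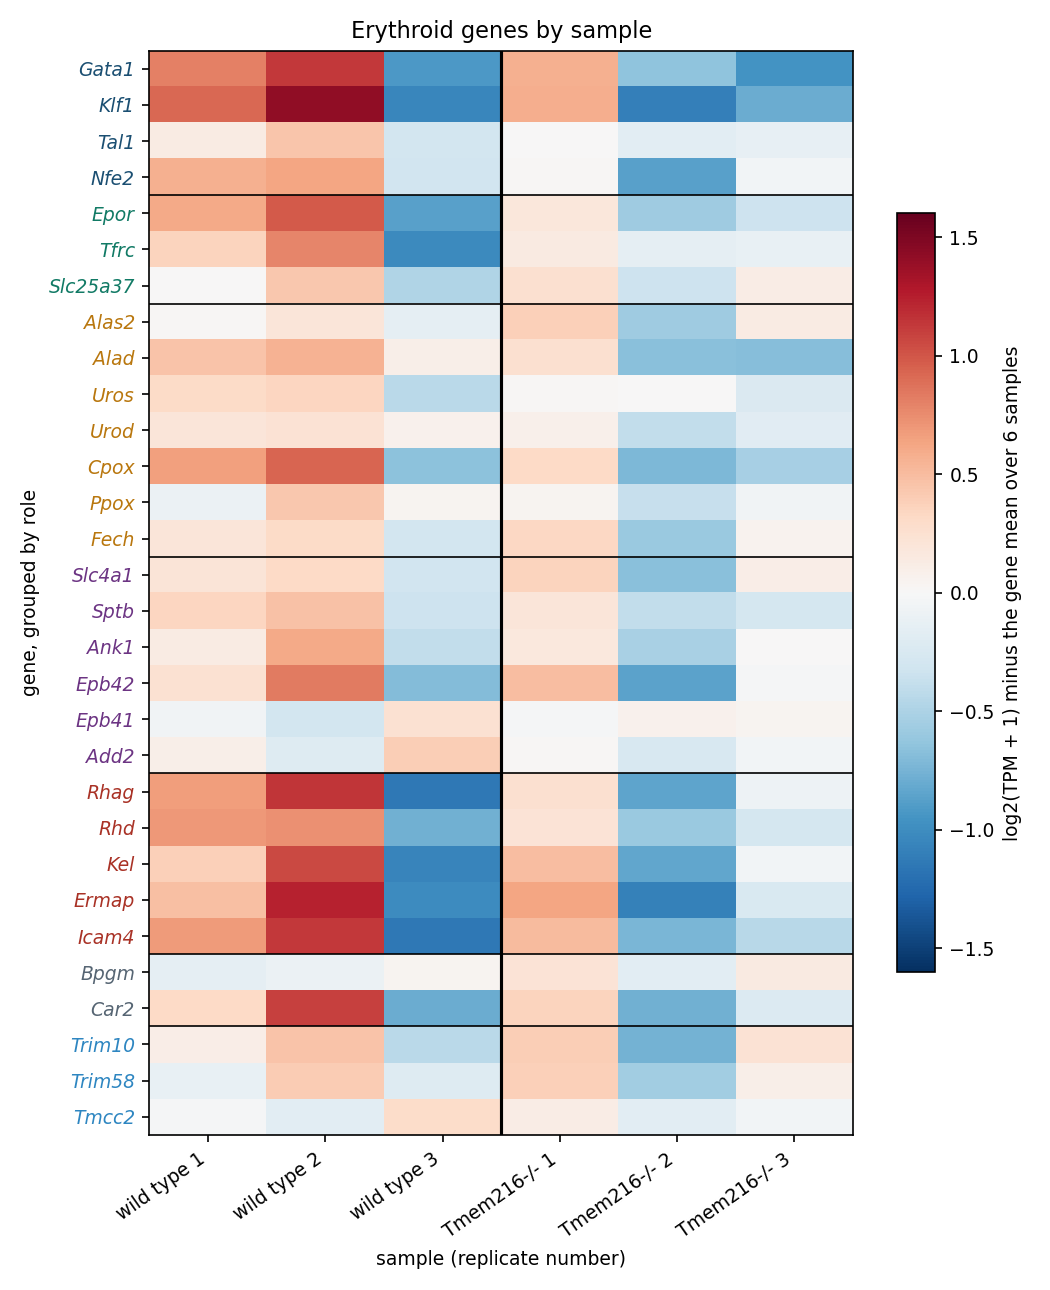
Each row is 1 of the 30 genes, grouped by role with lines between roles, and each column is 1 sample; colour is log2(TPM + 1) minus the mean of that gene over the 6 samples. Wild type replicates 1 and 2 and Tmem216-/- replicate 1 are red in most rows, and wild type replicate 3 and Tmem216-/- replicate 2 are blue, so the colours cross the line between genotypes.

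The bases before the start sites of these genes were searched for the motif bound by GATA1. The genes were chosen by name as erythroid, and the share with a match does not depend on the values of the 6 samples. The motif was taken as AGATAA or TGATAA, or with a final G as AGATAG or TGATAG, on either strand. RefSeq start windows (build GRCm38.p6) were at hand for 24 of the 30 genes, and the first window listed for each gene was used. A match lay within the 250 bases before the start in 15 of 24 genes, or 62.5%, and in 27.1% of the 27025 genes with a window. The box CCNCNCCC, a form of which KLF1 binds, was found in 50% of the 24 and 45.6% of all genes, and the E box CANNTG in 58.3% and 66.0%. GGGCGG, the box of SP1-type factors, was found in 50% and 32.9%, and TATAAA in 12.5% and 13.0%. All were searched on either strand, and matches of different motifs may overlap. Gata1, Tfrc, Alad and Urod were among the genes with no GATA match. The 7 stretches below were picked by hand from the 15 genes with a match. They belong to a regulator, 2 heme enzymes and 4 surface protein genes that recur in the results. They are written 5′ to 3′ on the strand of the gene, outside annotated exons, with GATA matches in capitals, and TTATC is GATAA read on the other strand.
Klf1: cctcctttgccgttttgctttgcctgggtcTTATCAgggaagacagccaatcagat
Alas2: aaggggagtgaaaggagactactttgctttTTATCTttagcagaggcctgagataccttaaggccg
Cpox: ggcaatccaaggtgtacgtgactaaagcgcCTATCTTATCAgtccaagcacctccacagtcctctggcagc
Rhag: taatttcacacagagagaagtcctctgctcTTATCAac
Rhd: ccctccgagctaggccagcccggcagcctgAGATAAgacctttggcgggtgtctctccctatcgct
Kel: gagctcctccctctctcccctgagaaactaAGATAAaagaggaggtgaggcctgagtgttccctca
Ermap: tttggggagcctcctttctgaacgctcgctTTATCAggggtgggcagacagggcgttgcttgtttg

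These stretches lie at chr8:84901872-84901927 (Klf1, plus strand), chrX:150547301-150547366 (Alas2, plus), chr16:58670087-58670157 (Cpox, plus) and chr17:40811088-40811125 (Rhag, plus). The others lie at chr4:134864463-134864528 (Rhd, plus), chr6:41704346-41704411 (Kel, minus) and chr4:119190027-119190092 (Ermap, minus). Distances are counted to the RefSeq start of each window, which can differ from the GENCODE gene starts printed elsewhere. The Klf1 match begins 80 bases before the RefSeq start, the Alas2 match 86, the Rhag match 31, the Rhd match 43 and the Ermap match 67. In Cpox 2 matches share a base, and the first begins 91 bases before the RefSeq start. Kel also has 2 matches, of which only the first, 56 bases before the RefSeq start, lies in the stretch shown. The ratio of the highest to the lowest sample had a median of 3.74 in the 15 genes with a match and 1.77 in the 9 without. Of those 15 genes 12 are mainly erythroid, against 1 of the 9, so the motif and the cell type of expression cannot be told apart here. A match is a run of letters and does not show binding.

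The 4 transcription factor genes all had fold changes below 0, and 3 of them varied more than 3-fold among samples. Gata1, the zinc finger factor that the lineage requires (chromosome X, 7959260 to 7978071, minus strand, mm10), was 14.5, 18.5 and 3.69 TPM in the wild type and 12.2, 4.68 and 3.58 TPM in Tmem216-/-. Wild type replicate 3 therefore sat beside Tmem216-/- replicates 2 and 3, and Tmem216-/- replicate 1 beside the other wild type samples. The means were 12.2 ± 7.66 and 6.82 ± 4.70 TPM (SD, n = 3 each), a log2 fold change of -0.68 with an SE of 0.62 and a 95% interval from -2.17 to 0.80 in limma. Klf1, which encodes the Krüppel-like activator of adult globin and membrane genes (chromosome 8, 84901928 to 84905291, plus strand), was 30.7, 43.9 and 7.17 TPM in the wild type and 24.2, 6.90 and 8.71 TPM in Tmem216-/-. Its log2 fold change was -0.86, with an interval from -2.56 to 0.83, and it had the widest spread of the regulators, 6.36-fold from the lowest to the highest sample. The fold changes depended on single samples. Leaving out wild type replicate 3 gave -1.6 for Klf1 and -1.31 for Gata1, and leaving out wild type replicate 2 gave -0.37 and -0.29. Nfe2, the leucine zipper factor shared with platelet-forming cells, was 18.9, 19.9 and 9.84 TPM and 12.6, 6.36 and 12 TPM, a log2 fold change of -0.59. Tal1, the helix-loop-helix partner of GATA1 that endothelial cells also use, was 25.4, 31.7 and 18.7 TPM and 23.2, 20.3 and 21.0 TPM. It varied only 1.69-fold, and its log2 fold change was -0.19 with an interval from -0.65 to 0.26.

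Of the receptor and iron genes, Epor and Tfrc had the same 3 highest samples as Klf1, and Slc25a37 did not. Epor, the erythropoietin receptor gene, was 15.0, 19.9 and 4.81 TPM in the wild type and 11, 6.11 and 7.40 TPM in Tmem216-/-. Its lowest value was that of wild type replicate 3, and its log2 fold change was -0.48 (95% interval -1.63 to 0.67), or -1.03 without that sample and -0.11 without wild type replicate 2. Tfrc, which encodes the transferrin receptor used by every dividing cell and most heavily by erythroblasts, was 53.0, 71.6 and 19.8 TPM and 45.5, 37.2 and 37.8 TPM. The 3 Tmem216-/- values of Tfrc all fell inside the wild type range, and the log2 fold change was -0.08. Slc25a37, which encodes mitoferrin 1 and carries iron into mitochondria, was 63.7, 86.4 and 45.4 TPM and 76.2, 50.4 and 69.0 TPM. Its means, 65.2 ± 20.5 and 65.2 ± 13.3 TPM, were level, with a log2 fold change of 0.03.

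Heme is built by a chain of enzymes, and 7 of their genes are members. Alas2, the erythroid form of the first and rate-limiting enzyme (chromosome X, 150547375 to 150570638, plus strand), was 74.0, 83.9 and 66.3 TPM in the wild type and 95.7, 49.3 and 80.2 TPM in Tmem216-/-. The highest and the lowest value were both in Tmem216-/-, the means were 74.8 ± 8.79 and 75.1 ± 23.6 TPM, and the log2 fold change was -0.04 (95% interval -0.62 to 0.54). Alad, the second enzyme (chromosome 4, 62509169 to 62519918, minus strand), came to 106, 114 and 82.3 TPM and 92.3, 48.3 and 47.7 TPM. Only Tmem216-/- replicate 1 reached into the wild type range. Alad had the smallest p of the 30 genes, 0.0324 before and 0.983 after adjustment in limma, with a log2 fold change of -0.73 (SE 0.27, 95% interval -1.39 to -0.08) and means of 101 ± 16.7 and 62.8 ± 25.6 TPM. Urod, the fifth enzyme, was 106, 109 and 97.1 TPM and 98.1, 70.1 and 81.7 TPM, a log2 fold change of -0.33 with an SE of 0.13, an unadjusted p of 0.0455 and an adjusted p of 0.983 in limma. As in Alad, Tmem216-/- replicate 1 was the sample that overlapped wild type. With each sample left out, the log2 fold change of Alad ran from -1.04 to -0.58 and that of Urod from -0.45 to -0.21.

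The other heme enzymes were split between a steady and a variable pattern. Cpox, the sixth enzyme, was 57.4, 69.7 and 22.3 TPM in the wild type and 45.1, 21.4 and 24.5 TPM in Tmem216-/-. It varied 3.26-fold, the widest of the 7, and wild type replicate 3 sat level with the lower Tmem216-/- samples; the log2 fold change was -0.62 with an SE of 0.46, or -1.11 without that sample and -0.31 without wild type replicate 2. Uros, the fourth enzyme, was 34.1, 34.9 and 20.0 TPM and 27.6, 27.3 and 23.1 TPM, and Ppox, the seventh, was 34.8, 50.5 and 38.6 TPM and 38.5, 28.6 and 36.0 TPM. Both varied less than Cpox, 1.75-fold and 1.77-fold, with log2 fold changes of -0.14 and -0.25. Fech, which inserts the iron, was 66.6, 71.7 and 47.1 TPM and 73.3, 38.2 and 60.4 TPM, with a log2 fold change of -0.13. Alas1, the form of the first enzyme used outside the lineage and no member, was 50.5, 49.1 and 73.4 TPM and 51.7, 55.6 and 60.4 TPM. Wild type replicate 3, the lowest sample in 10 of the 30 erythroid genes, was the highest sample for Alas1. Over all tested genes that sample was the lowest in 27.0% and the highest in 35.4%, so neither position is particular to these genes.

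**Figure D2:**
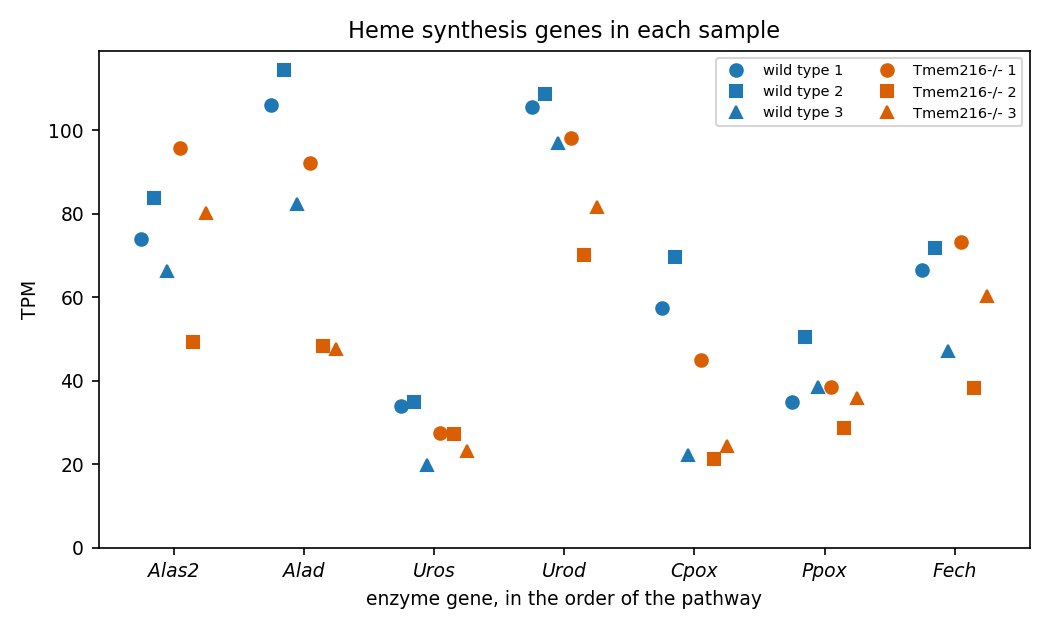
TPM of the 7 heme synthesis genes among the members in pathway order, 1 point per sample, blue for wild type and orange for Tmem216-/-, with the replicate number as the shape. The genotypes overlap in every gene, and Tmem216-/- replicate 2 is among the lowest points of most of them.

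Genes of the membrane skeleton, which ties the bilayer to a spectrin and actin mesh, had log2 fold changes from -0.32 to 0.07. Slc4a1, the anion exchanger band 3 (chromosome 11, 102348824 to 102366203, minus strand), was 99.7, 108 and 69.9 TPM in the wild type and 111, 54.2 and 92.8 TPM in Tmem216-/-. The Tmem216-/- samples held both ends of its range, and its log2 fold change was -0.14 (95% interval -0.83 to 0.54). Epb42, protein 4.2, which binds band 3, was 10.5, 16.4 and 5 TPM and 12.7, 4.35 and 8.61 TPM, a 3.76-fold spread and a log2 fold change of -0.25. Ank1, the ankyrin that links band 3 to spectrin, was 22.0, 31.1 and 15.0 TPM and 22.7, 13.7 and 20.2 TPM (-0.23). Sptb, beta spectrin, was 18.1, 19.9 and 11 TPM and 16.3, 10.5 and 11.4 TPM (-0.32). In these 4 genes the highest wild type sample was replicate 2 and the lowest was replicate 3. The other skeleton genes, also active in neurons, had another order of samples, though Ank1 and Sptb are likewise expressed outside the erythroid lineage. Epb41, protein 4.1, was 161, 136 and 199 TPM and 165, 176 and 172 TPM, with a log2 fold change of 0.07. Add2, beta adducin, was 57.0, 46.1 and 70.7 TPM and 54.1, 44.8 and 51.6 TPM (-0.19). For both, wild type replicate 3 was the highest of the 6 samples, as it was for 35.4% of all tested genes. Of 10 neuron markers 5 were highest in that sample. The other 5 were highest in Tmem216-/- replicate 2, as were 11.7% of all tested genes. The part of neuron markers in these values was not tested.

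Surface protein genes varied most. The 5 genes of this role had a median SD within a genotype of 0.94 on the log2 scale, and in all 5 the 3 highest samples were wild type replicates 1 and 2 and Tmem216-/- replicate 1. Icam4, the Landsteiner-Wiener adhesion protein, was 9.91, 13.8 and 2.08 TPM in the wild type and 8.59, 3.07 and 4 TPM in Tmem216-/-, a 6.64-fold spread that was the widest of the 30. Rhag, the Rh-associated ammonium channel (chromosome 17, 40811126 to 40840754, plus strand), was 13.2, 18.7 and 3.05 TPM and 9.71, 3.99 and 7.44 TPM. Ermap, the Scianna antigen, was 19.7, 33.8 and 6.39 TPM and 22.0, 6.01 and 11.5 TPM. The lowest sample was wild type replicate 3 for the first pair and Tmem216-/- replicate 2 for Ermap. Kel, the Kell endopeptidase, was 24.8, 40.1 and 8.50 TPM and 26.9, 10.1 and 18.2 TPM. Rhd, the Rh antigen carrier, was 26.4, 27.2 and 8.95 TPM and 18.7, 10.2 and 12.9 TPM. The log2 fold changes of the 5 ran from -0.47 to -0.25, and each interval was wide; that of Ermap went from -2.01 to 1.07, so neither a 2-fold fall nor a 2-fold rise lay outside it. Without wild type replicate 2, 4 of the 5 turned to values above 0 (Rhag 0.0157, Kel 0.21, Ermap 0.0299 and Icam4 0.0009), and all 5 did with a covariate for hepatocyte markers.

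Among the remaining genes, Car2, the cytosolic carbonic anhydrase, was 150, 258 and 68.8 TPM in the wild type and 155, 70.0 and 103 TPM in Tmem216-/-. It followed the surface genes, with a 3.75-fold spread and a log2 fold change of -0.42. Bpgm, which makes the 2,3-bisphosphoglycerate that loosens oxygen from haemoglobin, was 54.6, 56.5 and 61.8 TPM and 70.3, 53.3 and 66.4 TPM. Its spread of 1.32-fold was the smallest of the 30, and its log2 fold change, 0.13 (95% interval -0.17 to 0.42), was the highest. Trim10, needed for late erythroid differentiation, was 17.7, 22.7 and 11.9 TPM and 21.8, 9.27 and 19.5 TPM (-0.09). Trim58, a ubiquitin ligase of enucleating erythroblasts, was 1.06, 1.98 and 0.94 TPM and 1.91, 0.53 and 1.4 TPM (-0.05) and passed the filter on low levels narrowly. Tmcc2, a membrane protein gene that neurons also use, was 42.1, 37.8 and 52.6 TPM and 46.5, 38.1 and 41.4 TPM (-0.06), with wild type replicate 3 highest as in Add2.

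**Figure D3:**
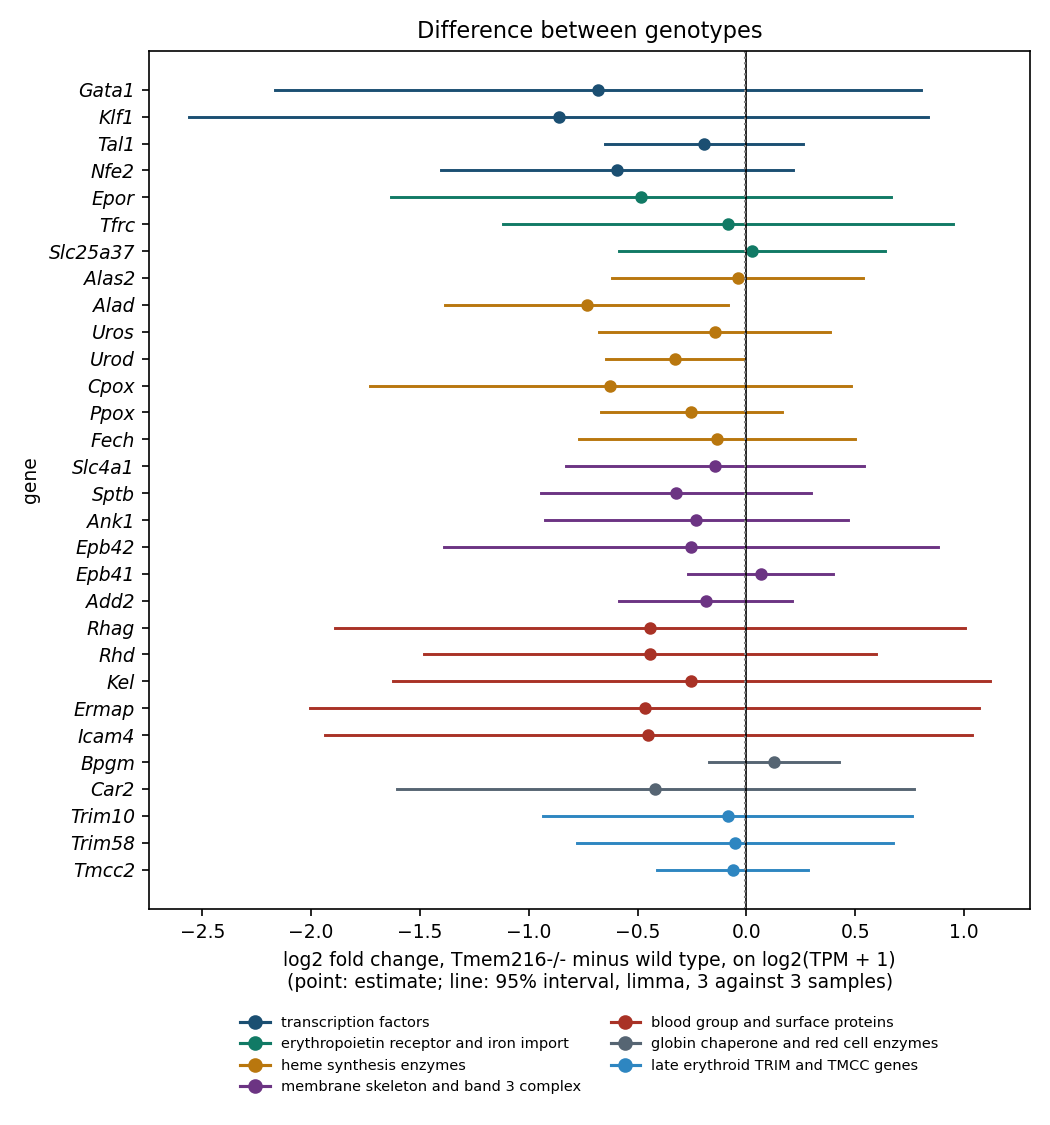
Points are log2 fold changes of Tmem216-/- minus wild type on log2(TPM + 1) and lines their 95% intervals from limma (3 against 3 samples), coloured by role; the dotted line is the median of all tested genes. The estimates run from -0.86 (Klf1) to 0.13 (Bpgm), and the intervals are widest for Klf1, Ermap, Gata1, Icam4 and Rhag.

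The 30 genes were also split, by classes assigned by hand, into 16 mainly erythroid genes and 14 that other tissues also express. The erythroid group had a median SD within a genotype of 0.70 on the log2 scale and the broader group 0.35. Single genes did not all follow the split. Car2 (3.75-fold) and Tfrc (3.61-fold) are in the broader group, and Tal1 (1.69-fold) and Alas2 (1.94-fold) in the erythroid one. Tal1 was placed there although endothelial cells also use it, and Nfe2 although platelet-forming cells do, so the classes are not strict. Summed TPM of the 16 was 465, 587 and 273 in wild type and 488, 246 and 378 in Tmem216-/-. The median log2 fold change was -0.35 in the 16 and -0.21 in the 14. In bulk samples fewer erythroid cells and less RNA per cell cannot be told apart.

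**Figure D4:**
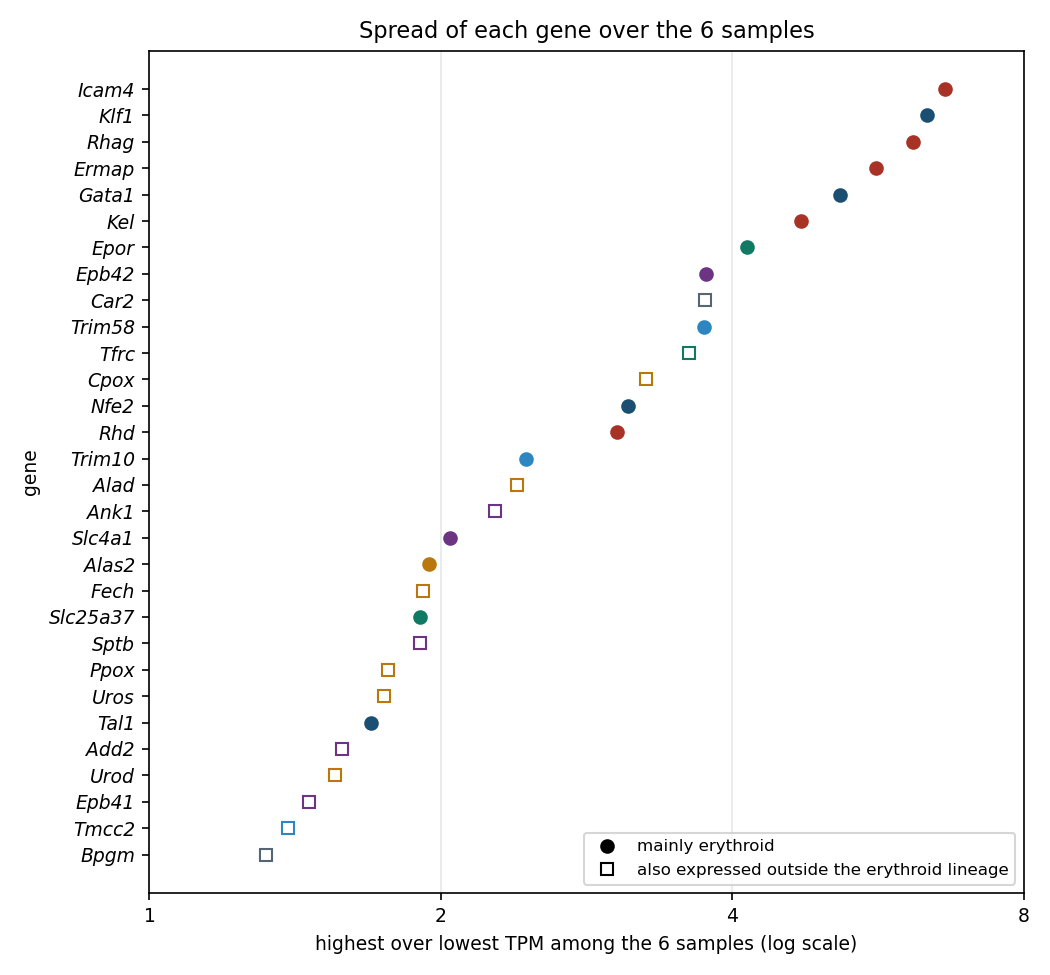
Ratio of the highest to the lowest TPM among the 6 samples for each gene, on a log scale, with filled circles for the mainly erythroid genes and open squares for the broader ones. Icam4 (6.64), Klf1 (6.36) and Rhag (6.14) are at the top and Bpgm (1.32) at the bottom, while Alas2 (1.94) and Slc4a1 (2.04) lie below Gata1, Klf1 and Nfe2 and above Tal1 (1.69).

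Alas2 and Slc4a1, which mature and circulating erythroblasts hold in quantity, spread less than Gata1, Klf1 and Nfe2 over the 6 samples, though more than Tal1. Other membrane, globin and late genes went both ways. Epb42 (3.76-fold) and Hbb-bs (9.41-fold) spread more than Nfe2 (3.12-fold), and Trim10 (2.45-fold) and Hbb-y (2.04-fold) less. Several genes also varied relative to Alas2. Klf1 divided by Alas2 was 0.415, 0.523 and 0.108 in wild type and 0.253, 0.140 and 0.109 in Tmem216-/-. Rhag divided by Alas2 was 0.178, 0.223 and 0.0460 and 0.102, 0.0810 and 0.0927. Slc4a1 divided by Alas2, by contrast, stayed between 1.05 and 1.35 in all 6 samples. These ratios were chosen after the values were seen and are given as a description.

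The globins did not share 1 order of samples, and 2 of the 8 tested had the 3 highest samples of Klf1. The embryonic genes Hba-x, Hbb-y and Hbb-bh1 summed to 17306, 19003 and 18616 TPM in the wild type and 28216, 16360 and 25923 TPM in Tmem216-/-, with Tmem216-/- replicates 1 and 3 highest. Hbb-bs, an adult beta globin gene, was 3996, 4047 and 702 TPM and 1508, 430 and 943 TPM, with the same 3 highest samples as Klf1. Hbb-bs and Hbb-bt are nearly identical, so how reads were divided between them is uncertain; Hbb-bt was 1585, 1615 and 1157 TPM and 1965, 891 and 1793 TPM. The adult alpha genes did not follow Hbb-bs: Hba-a1 was 11955, 8291 and 6912 TPM and 14805, 4230 and 12480 TPM. Hba-a2 was 8368, 11050 and 9424 TPM and 9998, 5890 and 7933 TPM, with a log2 fold change of -0.30. These alpha genes are near-identical too, so the division of reads between them is uncertain. Summed, the 4 genes Hba-a1, Hba-a2, Hbb-bs and Hbb-bt were at 25904, 25004 and 18196 TPM in the wild type. In Tmem216-/- their sum was 28277, 11441 and 23149 TPM, so its 3 highest samples were those of Klf1. Hba-x had a log2 fold change of 0.48. Hbb-bh1 was 1439, 1796 and 2142 TPM and 2685, 2939 and 2662 TPM, with no overlap between the genotypes, a log2 fold change of 0.64 and an adjusted p of 0.582 in limma. Of 8 tested globin genes 0 passed over all genes and 1 had an unadjusted p under 0.05.

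Markers of the liver, where definitive erythroblasts mature, followed nearly the same samples. The 14 hepatocyte markers summed to 2237, 2594 and 260 TPM in the wild type and 1111, 142 and 175 TPM in Tmem216-/-, and in 12 of the 14 the 3 highest samples were wild type replicates 1 and 2 and Tmem216-/- replicate 1. Afp, the fetal serum protein, was 669, 1228 and 11.3 TPM and 480, 0.47 and 3.07 TPM. Apoh was 17.4, 9.77 and 1.21 TPM and 4.34, 0.81 and 1.37 TPM, and Ahsg 61.5, 33.8 and 3.14 TPM and 12.1, 3.47 and 2.60 TPM; Ttr, also made by other tissues, was 169, 73.0 and 140 TPM and 61.7, 61.4 and 93.9 TPM. Of the 14, 0 passed in limma over all genes, 1 (Vtn) had an unadjusted p under 0.05, and all 14 were below 0 with a median of -1.75. With the log2 summed level of these markers as a covariate, an alternative added after the values were seen, the median log2 fold change of the erythroid genes was 0.25, 7 of 30 were below 0 and 0 of 30 passed. As all 14 markers were themselves below 0, the parts of this covariate and of the genotype cannot be told apart.

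Among other blood and vessel markers, those of megakaryocytes had the same 3 highest samples as the erythroid genes, with another order among the lower 3. The 10 megakaryocyte markers, which share GATA1 and NFE2 as regulators, summed to 120, 192 and 71.8 TPM in the wild type and 161, 96.8 and 56.8 TPM in Tmem216-/-. Of the 9 tested, 7 had wild type replicates 1 and 2 and Tmem216-/- replicate 1 on top, against 1 of 10 macrophage and 0 of 10 endothelial markers. Tmem216-/- replicate 3 was the lowest megakaryocyte sum, whereas the mainly erythroid genes were lowest in Tmem216-/- replicate 2. The 12 macrophage and leukocyte markers summed to 128, 120 and 131 TPM and 109, 94.9 and 98.0 TPM; 6 of the 10 tested were lower in Tmem216-/- with no overlap (4.83% of all tested genes were so), and 0 passed. Laptm5, a lysosomal protein of leukocytes, came to 13.5, 13.5 and 15.9 TPM against 12, 8.85 and 8.97 TPM, with an adjusted p of 0.931 in limma. The 10 endothelial markers summed to 240 to 264 TPM in the wild type and 243 to 289 TPM in Tmem216-/-. Tek, the angiopoietin receptor gene, had a log2 fold change of 0.58 (adjusted p = 0.496 in limma). The 12 cardiac muscle markers summed to 141 to 239 TPM and 1255 to 2864 TPM, with all 12 higher and without overlap (4.75% of all tested genes were so). Of the 12, 11 rose at an adjusted p under 0.05 in limma (0.0975% of all tested genes); with no filter, or without wild type replicate 1, 0 genes passed. The part of any of these lists in the erythroid values was not tested.

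**Figure D5:**
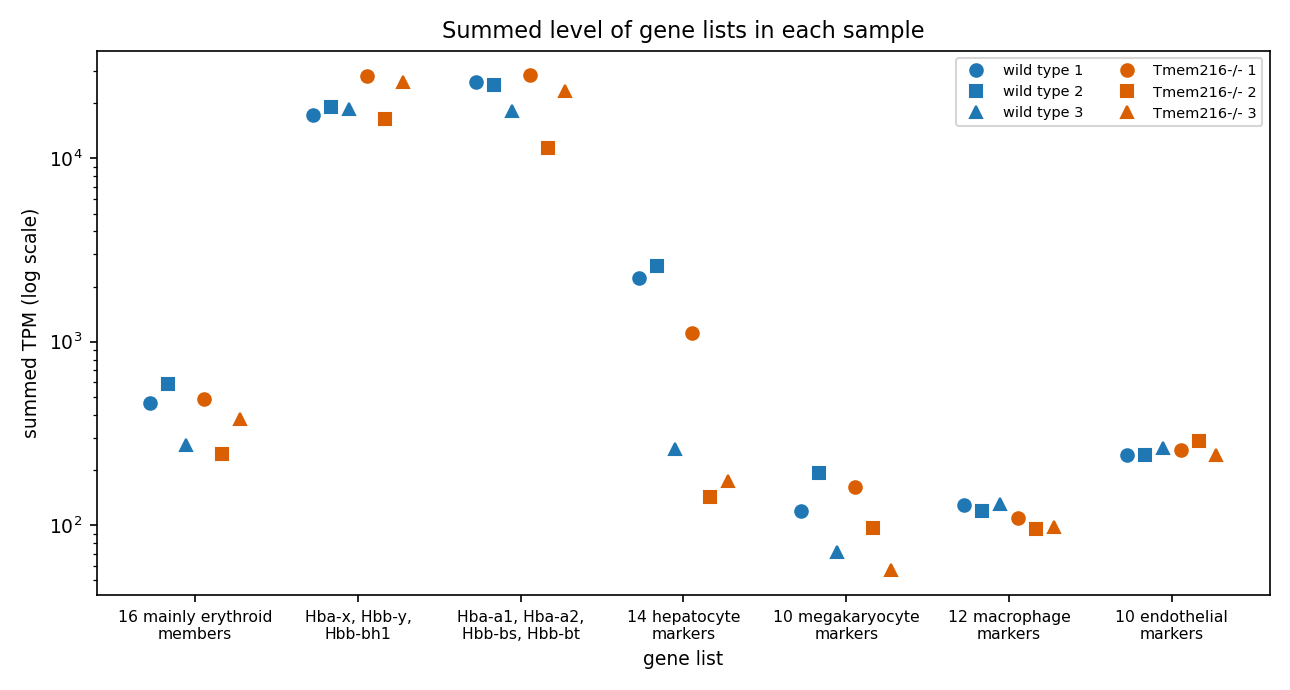
Summed TPM of 7 gene lists in each sample, on a log scale, blue for wild type and orange for Tmem216-/-, with the replicate number as the shape. The 14 hepatocyte markers run from 142 to 2594 TPM with the same 3 samples on top as the 16 mainly erythroid genes. The 10 megakaryocyte markers and the sum of Hba-a1, Hba-a2, Hbb-bs and Hbb-bt also have these samples on top. The embryonic globins, the macrophage markers and the endothelial markers do not.

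Further genes of the pathway, from lists outside the 30, gave the same picture of no call between genotypes. Of 18 other erythroid regulators 15 had fold changes below 0, 0 passed, 1 had an unadjusted p under 0.05 and the median was -0.27. Gfi1b, a repressor that GATA1 switches on, was 14.1, 17.8 and 3.32 TPM in the wild type and 6.81, 1.71 and 2.5 TPM in Tmem216-/- (log2 fold change -1.35, adjusted p = 0.983 in limma). Bcl11a, the repressor of embryonic globins that neurons also express, was 51.3, 49.3 and 59.6 TPM and 45.4, 40.9 and 44.1 TPM, a difference of -0.29 with no overlap. Zbtb7a, another globin repressor, had a log2 fold change of -0.38, and Kit, the stem cell factor receptor gene, -0.26. Of 23 other heme and iron genes 18 were below 0, 0 passed, 2 had an unadjusted p under 0.05 and the median was -0.13. Slc25a38, the mitochondrial glycine carrier that feeds the first enzyme, was 41.4, 42.0 and 42.1 TPM and 38.3, 30.1 and 29.7 TPM, with no overlap and a log2 fold change of -0.35 (adjusted p = 0.983 in limma). Abcb6, a porphyrin transporter gene, was at -0.37, Fam210b, a mitochondrial gene of heme synthesis, at -0.15 and Slc40a1, the iron exporter ferroportin, at -0.60.

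Of 19 other red cell membrane genes 15 were below 0, 0 passed, 1 had an unadjusted p under 0.05 and the median was -0.13. That gene was Tmod1, the tropomodulin that caps actin in red cells and in heart muscle, at 5.81, 8.06 and 3.52 TPM in the wild type and 11.3, 13.3 and 10.9 TPM in Tmem216-/- (log2 fold change 0.97, adjusted p = 0.746 in limma). Its direction was opposite to that of most of the list, and the cardiac muscle markers were higher in the same samples; their part in the value was not tested. Bcam, a laminin receptor, was at 0.18, Tspan33, a tetraspanin of erythroblasts, at -0.54 and Add1, alpha adducin, at -0.17. The 3 highest samples were the ones that led Klf1 and Rhag in 12 of these 19 genes, in 7 of the 18 other regulators and in 9 of the 23 other heme and iron genes.

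Tmem216, the targeted gene, was 17.4 to 31 TPM in the wild type and 0.51 to 2.25 TPM in Tmem216-/- (log2 fold change -3.55, adjusted p = 0.0266 in limma). Alas2, Ppox and Sptb overlap exons of Apex2 (mean 17.2 TPM), B4galt3 (36.5 TPM) and Plekhg3 (7.18 TPM) on the opposite strand. Whether the counting used strand is not given in the sources used here, so reads of these pairs may be mixed.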

How the data were processed

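RNA was sequenced from 3 wild type and 3 Tmem216-/- samples, grouped by their titles. The authors deposited TPM per gene; CASAVA 1.8, HISAT2, StringTie, RSEM and build mm10 are named per the submitters' processing notes, and the annotation is not given in the sources used here. Depth is unknown, and TPM was not tested with a count model. Of the 56359 rows, 27 had names turned into dates, which were restored by identifier; 2 columns of group means were used only for a check.

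Tested genes (16411) had to reach 1 TPM in 3 or more samples. They were compared on log2(TPM + 1) by limma 3.58.1 (R 4.3.3, lmFit, eBayes with trend, two-sided). Adjustment was by Benjamini-Hochberg over all tested genes, with a threshold of 0.05. A check on simulated data gave every gene the median SD of all tested genes (0.21). The erythroid genes had a median SD of 0.44, so the check does not cover their spread. SD is between samples. Exact permutation tests were two-sided. Coordinates are from GENCODE M21 (mm10). All members, and up to 4 genes of smallest p per further list, are named, with markers that move with them; Alas1, Hba-a1, Hbb-y and Hbb-bt were named outside this rule, after their values were seen. Members and lists were chosen with earlier results of these data known. Figures used matplotlib 3.10.9. Alternatives were pseudocounts of 0.1 and 5, other filters and scalings, covariates, the replicate block and each sample left out.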

Additional observations from a re-analysis of the deposited data

How the results depend on the processing

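In every alternative 0 of 30 erythroid genes passed (0 to 14 at an unadjusted p under 0.05), and their smallest adjusted p in limma ran from 0.21 to 0.9999. The count over all genes was 0 with no filter and 0 with the hepatocyte covariate, and 0 to 27 with each sample left out (0 without wild type replicate 1, 2 without replicate 2 and 1 without replicate 3; 27, 9 and 7 without Tmem216-/- replicates 1, 2 and 3). With the replicate block it was 25, and the median of the erythroid genes was -0.25. Deviations of same-numbered samples from their group means had correlations of 0.016, -0.093 and 0.1. Wild type replicate 2 correlated best with Tmem216-/- replicate 1 (0.14). With 3 samples per genotype, such small values cannot show whether same-numbered samples were paired. With each sample left out, 17 to 28 genes were below 0 and the median ran from -0.53 to -0.02. Scaling by median of ratios, or without haemoglobin, mitochondrial and ribosomal RNA genes, turned no gene's direction.

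All 14 hepatocyte markers had fold changes below 0, so the parts of the hepatocyte covariate and of the genotype cannot be told apart in 6 samples. With this covariate 7 of 30 were below 0, the median was 0.25 and the smallest adjusted p was 0.613 in limma. In that setting 22 genes turned, and the cause was not tested. Their log2 fold changes were 0.36 for Gata1, 0.34 for Klf1, 0.0541 for Tal1, 0.27 for Epor, 0.54 for Tfrc, 0.24 for Alas2, 0.14 for Uros, 0.16 for Cpox, 0.24 for Fech, 0.25 for Slc4a1, 0.0892 for Sptb, 0.17 for Ank1, 0.47 for Epb42, -0.10 for Epb41, 0.48 for Rhag, 0.26 for Rhd, 0.65 for Kel, 0.57 for Ermap, 0.57 for Icam4, 0.37 for Car2, 0.37 for Trim10 and 0.27 for Trim58. Summed TPM of Y-linked genes was 49.6, 99.2 and 0.05 in wild type and 0.17, 71.4 and 0.07 in Tmem216-/-, so sex was not balanced between the genotypes. With a sex covariate taken from these sums, Tfrc turned to 0.16, Gata1 was at -0.44 and Klf1 at -0.66. The median of the erythroid genes was then -0.23, with 26 of 30 below 0.

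With each sample left out, these genes turned: Tfrc (-0.61 to 0.29), Slc25a37 (-0.21 to 0.25), Alas2 (-0.24 to 0.23), Fech (-0.33 to 0.13), Slc4a1 (-0.35 to 0.15), Ank1 (-0.48 to 0.0173), Epb42 (-0.67 to 0.11), Epb41 (-0.0649 to 0.21), Rhag (-1.13 to 0.02), Kel (-0.85 to 0.21), Ermap (-1.09 to 0.0299), Icam4 (-1.13 to 0.0009), Car2 (-0.92 to 0.026), Trim10 (-0.32 to 0.27), Trim58 (-0.25 to 0.21) and Tmcc2 (-0.17 to 0.0667). TPM keeps no depth, so counting error could not be given. The filter at 5 TPM left out Trim58.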
